A study of Homo sapiens with 15 samples.

Results

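The replication-dependent histone genes, which lie in clusters on chromosomes 6 and 1, were examined for 3′-OH termini in K562, an established human leukemia cell line. The members were the protein-coding genes of GENCODE 44, mapped to hg19, whose names start with H1-, H2AC, H2BC, H3C or H4C in the major histone intervals of chromosomes 6 and 1, where they run from chr6:26017260 to 27861669 and from chr1:149754245 to 149859515. This rule gave 59 genes of the 20098 protein-coding genes of chromosomes 1 to 22 and X, 49 on chromosome 6 and 10 on chromosome 1. They comprised 6 genes of linker histone H1, 14 of H2A, 14 of H2B, 13 of H3 and 12 of H4. The other 28 protein-coding genes of the same intervals and the gaps of 1061046 bp that lie more than 500 bp from every annotated gene served as controls.

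SSiNGLe-P1 maps free 3′-OH ends of DNA after crosslinked nuclei have been digested with P1, an endonuclease that prefers single-stranded DNA and RNA. Nuclei were left untreated or digested with 0.01, 0.1, 1 or 10 U of P1, with 3 biological replicates for each of the 5 groups. All groups were the same unmodified cell line under the same crosslinking, so breaks that were already present in the cells are counted in every group. The libraries held between 2057216 and 3881950 unique sites, a site being a position and strand with at least 1 terminus. The window of CDKN2A, a gene deleted in K562, held 1 site of all 15 libraries in 28550 bp.

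Replication-dependent histone genes supply the histones that package new DNA, and they are transcribed mainly during S phase. They have no introns in their coding unit, their mRNA is not polyadenylated, and a conserved stem-loop near the 3′ end is bound by SLBP and guides the cleavage of the transcript. Many H2A and H2B genes stand head to head and share the DNA between their starts. The stem-loop, searched as the histone stem-loop consensus with a loop of TTTN, was found on the coding strand of 56 of the 59 members, near the 3′ end of all but H2BC21. It was not found in the searched stretch of H3C6, H2BC10 and H4C13. For H2BC21 alone the search was widened to the whole canonical transcript of 2224 bp, and the stem-loop lay 1729 bases before its end. The 4 commonest forms are shown because they mark the 3′ end used below, with both arms of the stem in capitals:
34 members of all classes but H4: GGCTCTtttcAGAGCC
8 members of H1, H2A, H2B and H3: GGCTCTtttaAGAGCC
7 H4 genes: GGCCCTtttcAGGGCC
4 H4 genes: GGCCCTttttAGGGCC

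The promoters of the members were rich in a few short motifs. In the 200 bases before the start, the TATA box core TATAAA on the coding strand was found in 35 of 59 members (59.3%) and in 5.58% of 35116 promoters of the RefSeq table (GRCh38.p14), which holds 54 of the members. The CCAAT box, searched as CCAAT or ATTGG, was found in 51 of 59 members (86.4%) and in 28.0% of all promoters. It was found in all 47 members of H1, H2A, H2B and H3 and in 4 of 12 H4 genes. The octamer core of histone H2B promoters, searched as ATTTGCAT or ATGCAAAT, was found in 11 of 14 H2B genes, 6 of 14 H2A genes and none of the H1, H3 and H4 genes, and in 1.31% of all promoters. The stretches between the starts of 3 divergent H2A and H2B pairs are shown on the plus strand of hg19, chosen because each held at least 4 sites in untreated nuclei and none at 10 U. Capitals mark the CCAAT box and the octamer core on either strand and TATAAA on the plus strand, where it is the coding strand of the gene on the right. The third stretch has no TATAAA on this strand.
H2BC21 to H2AC20, chr1:149858233-149858467: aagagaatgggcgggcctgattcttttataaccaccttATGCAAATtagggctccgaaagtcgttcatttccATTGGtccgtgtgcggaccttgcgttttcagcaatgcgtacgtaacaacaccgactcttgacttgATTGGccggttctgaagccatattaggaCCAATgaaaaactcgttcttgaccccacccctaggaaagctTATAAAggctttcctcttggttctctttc
H2BC11 to H2AC11, chr6:27100575-27100821: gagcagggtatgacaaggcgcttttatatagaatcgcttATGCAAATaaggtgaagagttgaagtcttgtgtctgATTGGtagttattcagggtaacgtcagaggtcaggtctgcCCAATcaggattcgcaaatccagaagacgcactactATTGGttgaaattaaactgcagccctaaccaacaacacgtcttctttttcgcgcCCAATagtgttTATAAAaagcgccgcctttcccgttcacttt
H2AC17 to H2BC17, chr6:27860964-27861202: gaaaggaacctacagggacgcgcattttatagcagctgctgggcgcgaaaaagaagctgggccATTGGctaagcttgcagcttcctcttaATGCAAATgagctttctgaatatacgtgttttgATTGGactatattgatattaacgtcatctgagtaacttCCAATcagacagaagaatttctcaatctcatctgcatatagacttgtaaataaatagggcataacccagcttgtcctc

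The histone gene windows, which run from 500 bp before the start to 500 bp past the end of each gene, held more sites than the gaps of the same intervals in every sample. The site density, in sites per Mb of sequence and per 1000000 unique sites of the library, was 625, 794 and 756 in untreated replicates 1, 2 and 3. With 0.01 U it was 733, 658 and 774, with 0.1 U 811, 715 and 725, and it was 568.6, 704.8 and 561.5 at 1 U. At 10 U it was 525, 569 and 543, below the untreated, 0.01 U and 0.1 U samples and overlapping the lower 2 of the 1 U samples. In the gaps the density was 490 ± 40.3 (SD, n = 3) without P1 and 495 ± 10.5 (SD, n = 3) at 10 U. The ratio of the histone windows to the gaps had a geometric mean of 1.34 and was above 1 in 15 of 15 samples (exact sign-flip test, two-sided, p = 6.1e-05, the smallest that 15 samples can give). Sign-flip tests here and below take the libraries of all P1 amounts together over the same genes, so their p does not measure the spread between genes. The gaps lay almost wholly on chromosome 6, with 1012071 of their bases there and 48975 on chromosome 1, and their median density was 513 on chromosome 6 and 256 on chromosome 1. With the genes and gaps of chromosome 6 alone the ratio was 1.54 (above 1 in 15 of 15 samples).

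The annotated span of several members is far longer than the histone mRNA, because longer annotated transcripts extend it. H2BC4 spans 37610 bp and H2BC18 29684 bp, whereas the canonical transcripts of these genes span 460 and 492 bp. The windows of all members together covered 233106 bp by the gene span and 82540 bp by the canonical transcript. Around the canonical transcripts the density over the gaps was higher, with a geometric mean of 2.00 (15 of 15 samples above 1, exact sign-flip p = 6.1e-05). The canonical transcripts were 57.0% G and C against 40.6% in the gaps. When sites were divided by the number expected from the trinucleotides around each mappable position, the ratio to the gaps was 1.43 for canonical windows (above 1 in 15 of 15 samples) and 1.21 for whole gene spans (14 of 15).

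Against the other protein-coding genes of the same intervals the outcome depended on the window, the P1 amount and the choice of positions and controls. With whole gene spans the histone windows had a ratio of 1.01 to the other genes, above 1 in 10 of 15 samples (exact sign-flip p = 0.782). This value pools amounts that lay on either side of 1. Without P1 the density was 725 ± 88.2 (SD, n = 3) in histone windows and 649 ± 34.8 in other genes. At 10 U it was 546 ± 22.3 in histone windows and 679 ± 41.5 in other genes. The pooled ratio was 1.19 on chromosome 6 alone (exact sign-flip p = 0.00171), 1.14 over mappable positions that pass the T-rich filter (p = 0.0128) and 1.13 against genes of any type (p = 0.0127). It did not pass the test with base composition taken into account (1.08, exact sign-flip p = 0.0626), all termini (1.00, p = 0.961) or 250 bp flanks (1.01, p = 0.869). Of the histone windows 83.9% were uniquely mappable, and of the windows of other genes 97.8%. With canonical windows the ratio was 1.51 and above 1 in 15 of 15 samples (exact sign-flip p = 6.1e-05), and with base composition taken into account it was 1.28, above 1 in 12 of 15 samples (p = 0.000977). The 28 other genes include 2 histone genes that carry older names and a longer gene model that overlaps H3C4, and without these 3 the ratio with whole gene spans was also 1.01 (exact sign-flip p = 0.788).

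**Figure D1:**
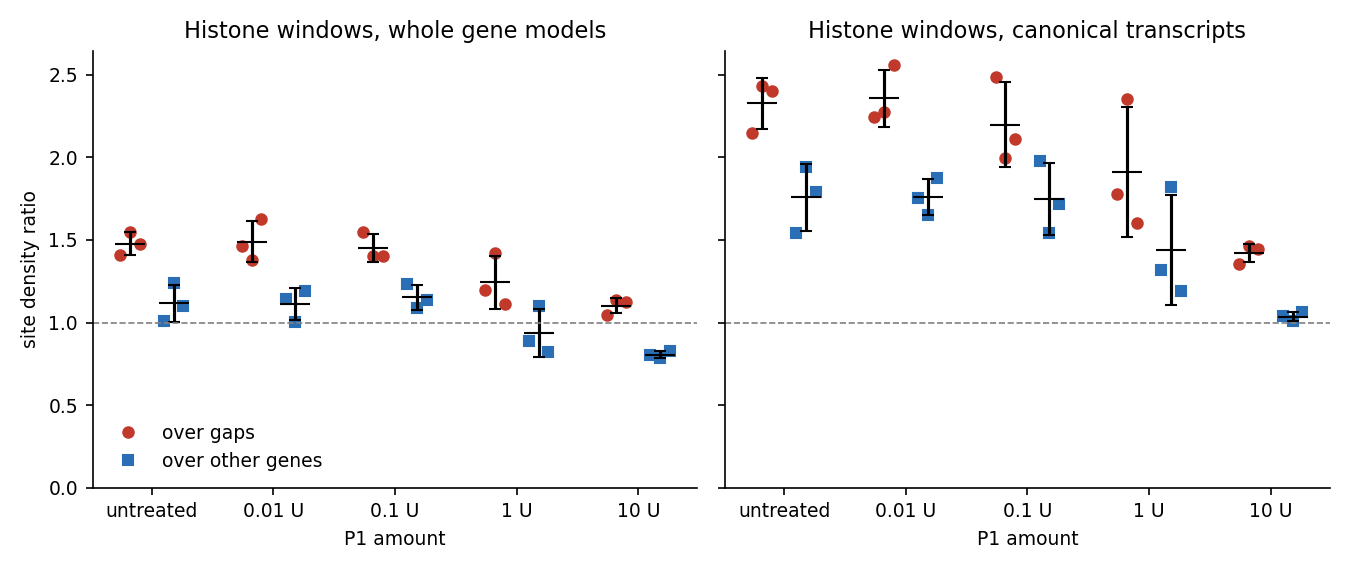
Site density in the histone windows divided by that in gaps (circles) or in other genes of the same intervals (squares), for each of the 15 samples by P1 amount, with whole gene models on the left and canonical transcripts on the right. Black dashes and bars are the mean and SD of 3 replicates, and the dashed line marks a ratio of 1. At 10 U the canonical ratio to gaps lay between 1.36 and 1.46, below every other sample.

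The density of the histone windows was lower after 10 U of P1 than at the other amounts. With whole gene spans the 10 U samples had 0.782 times the density of the other amounts (lower in 3 of 3 replicates, exact permutation test within replicate numbers, two-sided, p = 0.008, the smallest that this design allows). Relative to the gaps the factor was 0.783 (p = 0.016), and relative to the other genes it was 0.751 (p = 0.016), each lower in 3 of 3 replicates by the same exact permutation test. With canonical windows the factor relative to the gaps was 0.651 (exact permutation p = 0.008), and it was 0.714 (exact permutation p = 0.008) with base composition taken into account. The spread over all 5 amounts of the ratio to the gaps had an exact permutation p of 0.0197.

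No difference between untreated and P1-treated nuclei passed the test. The untreated ratio to the gaps was 1.13 times that of the other amounts (exact permutation p = 0.24), and with canonical windows the factor was 1.20 (p = 0.256). In canonical windows the ratio to the gaps was 2.32 ± 0.155 (SD, n = 3) in untreated samples and 2.36 ± 0.172 and 2.20 ± 0.257 for 0.01 and 0.1 U. For the higher amounts it was 1.91 ± 0.393 (1 U) and 1.42 ± 0.0568 (10 U). The raw counts in canonical windows were 305, 223 and 230 sites in the untreated samples and 146, 199 and 142 at 10 U.

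Sites were counted in bins of 100 bp around the canonical starts. In untreated nuclei the density over the gaps was 2.57 ± 0.254 (SD, n = 3) in the 100 bp before the start, 2.48 ± 0.417 in the first 100 bp of the transcript and 4.51 ± 1.12 in the next 100 bp, the highest bin. At 10 U the same bins had 0.607 ± 0.176, 1.40 ± 0.305 and 2.30 ± 0.398. The bin upstream of these had 2.33 ± 0.561 without P1 and 0.567 ± 0.401 at 10 U. Between 400 and 499 bp after the start the values overlapped, with 1.71 ± 0.775 without P1 and 2.03 ± 0.621 at 10 U.

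The ratio of the 500 bp before the start to the gene body was tested in each sample. With whole gene spans this ratio was 1.28, 1.43 and 1.20 in untreated replicates 1, 2 and 3 and 0.781, 0.675 and 0.670 at 10 U. One sample of 0.1 U, replicate 2, overlapped the 10 U samples with 0.678. The 10 U samples had 0.612 times the ratio of the other amounts (lower in 3 of 3 replicates, exact permutation p = 0.008). With canonical transcripts the upstream stretch was sparser than the body in 15 of 15 samples, with a mean ratio of 0.463 (exact sign-flip p = 6.1e-05), and the 10 U factor was 0.670 (exact permutation p = 0.008). The body was 57.0% G and C and the upstream stretch 44.2%, and with base composition taken into account the ratio was 0.749, above 1 in 1 of 15 samples. Upstream stretches of canonical transcripts held 65, 48 and 52 sites in untreated samples and 20, 29 and 18 at 10 U.

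**Figure D2:**
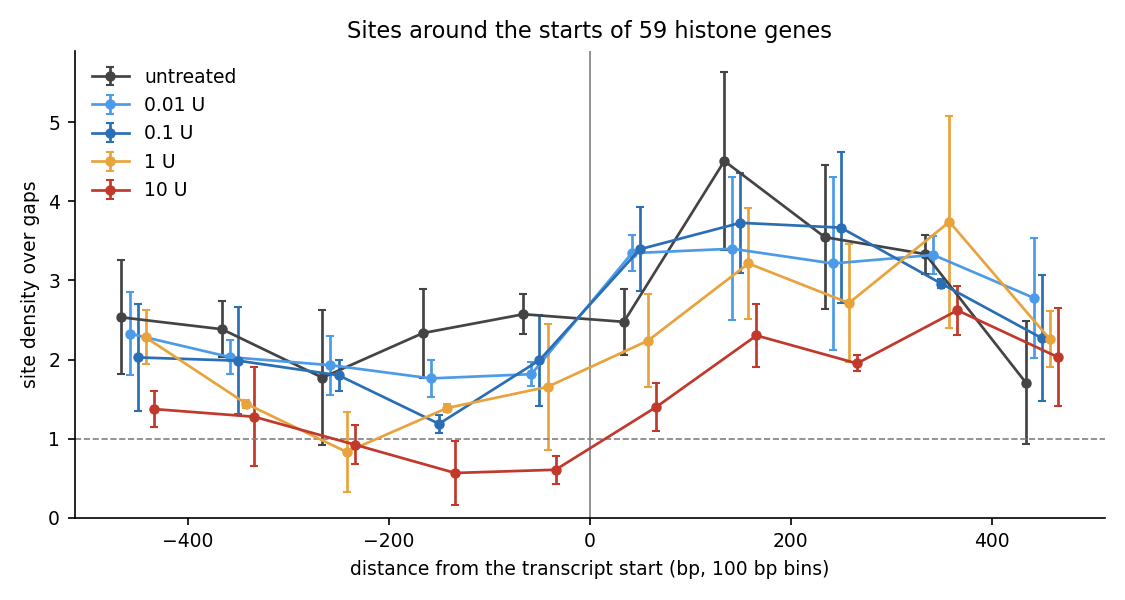
Site density over the gaps in bins of 100 bp from 500 bp before to 500 bp after the canonical starts of the 59 members, with 1 line for each P1 amount. Points are means and bars SDs of 3 replicates, the vertical line is the start and the dashed line a ratio of 1. The 10 U line lies at 0.567 and 0.607 in the 2 bins before the start, below the other amounts.

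Starts of other genes also held fewer sites at 10 U, and the members were set against them. Around the 20039 other protein-coding starts the density in the 100 bp before the start was 795 ± 41.0 (SD, n = 3) sites per Mb and 1000000 unique sites without P1 and 403 ± 19.0 at 10 U, and between 400 and 499 bp after the start it was 731 ± 6.82 and 619 ± 34.5. In the 100 bp before the canonical starts of the members it was 1258 ± 142 without P1 and 302 ± 92.1 at 10 U. The other starts were the outermost starts of the gene models and not those of canonical transcripts. The values of members and other genes by bin therefore rest on unlike starts. Over the whole 500 bp on either side, with gene-model starts for both sets, members had a geometric mean of 1.60 times the density of the other starts. Copy number enters this level. The 10 U samples had 0.753 times the ratio of the other amounts (lower in 3 of 3 replicates, exact permutation p = 0.016). The spread over the 5 amounts did not pass the threshold of 0.05 (exact permutation p = 0.202).

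Past the 3′ end no difference between amounts passed the test with all 3 replicates. The 500 bp past the end had 1.12 times the density of the body with whole gene spans (13 of 15 samples above 1, exact sign-flip p = 0.0148) and 0.570 times with canonical transcripts (0 of 15 samples above 1, exact sign-flip p = 6.1e-05). The first of these no longer passed the test on chromosome 6 alone (1.06, exact sign-flip p = 0.194), over mappable positions (1.06, p = 0.154), with base composition (1.07, p = 0.0954) or without replicate 3 (1.08, p = 0.119). In the 10 U samples this ratio exceeded that of the other amounts by a factor of 1.09 (exact permutation p = 0.448). The 10 U samples themselves ran from 0.842 to 1.54, a range that included the other 12 samples.

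There were 8 divergent pairs of an H2A and an H2B gene whose starts lie within 500 bp of each other. The 1896 bp between these starts held 32 sites in the untreated samples, and 12, 14, 10 and 5 with rising P1. Untreated nuclei had 4.20 ± 0.840 (SD, n = 3) times the density of the gaps, against 1.65 ± 0.817 for 0.01 U and 0.561 ± 0.653 for 10 U. The 3 pairs shown above were chosen for their counts, which are therefore only a description. H2BC11 to H2AC11 held 4 untreated sites among 10 in all, H2AC17 to H2BC17 held 4 among 9, and H2BC21 to H2AC20 held 8 among 11. Of the pairs not shown, H2BC4 to H2AC6 held 2 untreated sites and 0 at 10 U, and H2BC13 to H2AC13 held 5 and 2. H2BC12 to H2AC12 and H2AC15 to H2BC15 each held 4 and 1, and H2AC14 to H2BC14 held 1 and 1. In the 250 bp before the other 43 starts the values were 1.76 ± 0.372 in untreated nuclei, 1.90 ± 0.340 after 0.01 U and 0.645 ± 0.0870 after 10 U. These stretches were separated after the counts were seen, and the difference between paired and unpaired starts was not tested.

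The strand that carries a terminus was read from the deposited strand, which is that of the sequencing read and so opposite to the terminus. Over whole gene spans the coding strand, the strand with the sequence of the mRNA, carried a share of 0.484 of the sites, above 0.5 in 6 of 15 samples (exact sign-flip p = 0.065). No difference in the share between P1 amounts passed the test (exact permutation test of the spread, p = 0.908). In canonical transcripts the share was 0.456, above 0.5 in 3 of 15 samples (exact sign-flip p = 0.0341), and 0.463 with base composition taken into account (p = 0.079). In the 3 untreated samples the canonical share was 0.442, 0.368 and 0.365.

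Along the transcript the strands changed places. In the stretch of 200 bp that begins 100 bp after the start the template strand held 470 sites and the coding strand 264, and the template strand led in 12 of 15 samples. In the 100 bp before the middle of the stem-loop the coding strand held 186 sites and the template strand 117, and the coding strand led in 12 of 15 samples. Relative to the number expected from base composition at their mappable positions, the bin from 100 to 199 bp after the start had 3.21 on the template and 1.83 on the coding strand. The last 100 bp before the stem-loop had 2.07 on the template and 3.76 on the coding strand. In untreated samples alone the early stretch had 134 template and 49 coding sites, and at 10 U it had 62 and 43. By class the template share of the early stretch was 66.4% in H1, 69.1% in H2A, 65.8% in H2B, 61.8% in H3 and 53.4% in H4. These stretches were chosen after the profile was seen, so no test is given, and the coding sequences of a class are near copies of one another.

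**Figure D3:**
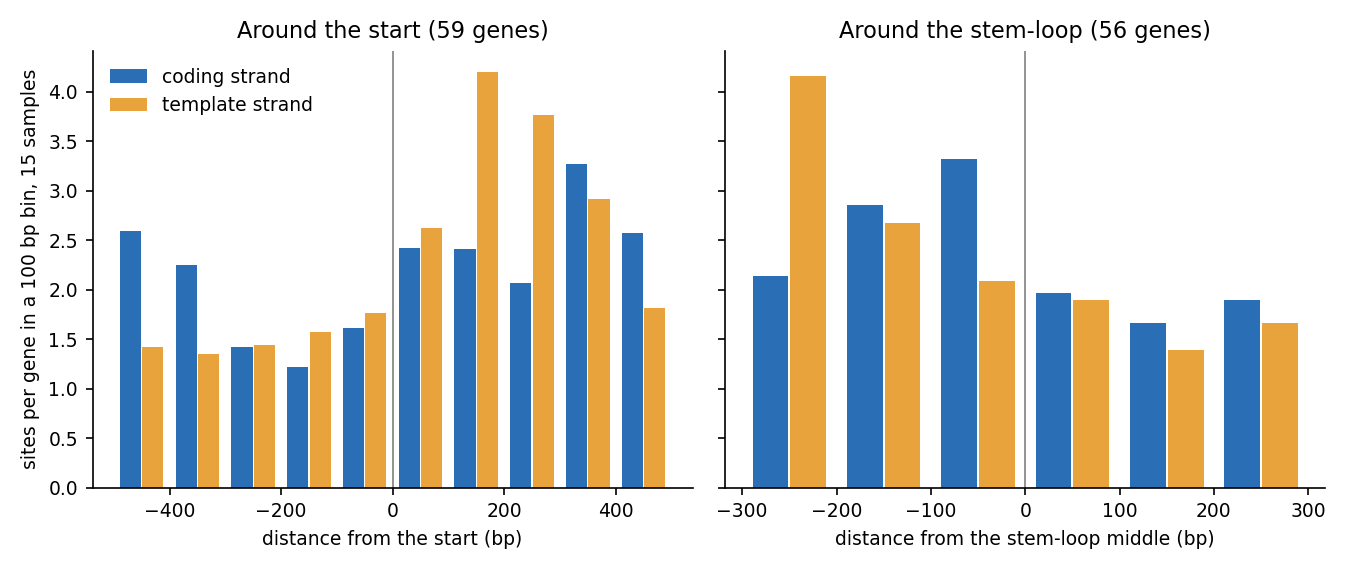
Sites per gene on the coding and the template strand in bins of 100 bp, summed over the 15 samples, around the canonical start of 59 genes (left) and around the middle of the stem-loop of 56 genes (right). Template bars lead in the 200 bp that begin 100 bp after the start (470 against 264 sites), and coding bars lead in the last 100 bp before the stem-loop (186 against 117 sites).

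All 5 classes had lower ratios to the gaps at 10 U than without P1, by different sizes. Linker histone H1, which binds DNA between nucleosomes, had canonical windows at 3.11 ± 0.471 (SD, n = 3) in untreated nuclei, 3.27 ± 0.588 after 0.01 U and 1.49 ± 0.323 after 10 U. The H2A genes went from 2.78 ± 0.550 to 1.45 ± 0.291, and the H2B genes, whose protein pairs with H2A in the nucleosome, from 2.55 ± 0.119 to 1.79 ± 0.0831. The H3 genes went from 2.00 ± 0.171 to 1.42 ± 0.105. The H4 genes went from 2.01 ± 0.264 to 1.02 ± 0.0969. In every class the highest 10 U sample lay below the lowest untreated one. In the transcripts alone the H3 genes had 3.04 ± 0.487 without P1 and 2.54 ± 0.0963 at 10 U, and the H2B genes 2.32 ± 0.438 and 2.11 ± 0.239. The lengths of H2A, H3 and H4 include H2AC19, H3C14, H3C15, H4C14 and H4C15, which have no unique sequence, and this lowers their ratios. Relative to the number expected from base composition over mappable positions, untreated H1, H2A and H2B had 2.95, 2.96 and 2.49. On this measure H3 had 2.38 and H4 2.40 without P1. At 10 U the values were 1.61, 1.67, 1.93, 1.95 and 1.41, from H1 to H4. The class values are a description and differences between classes were not tested.

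**Figure D4:**
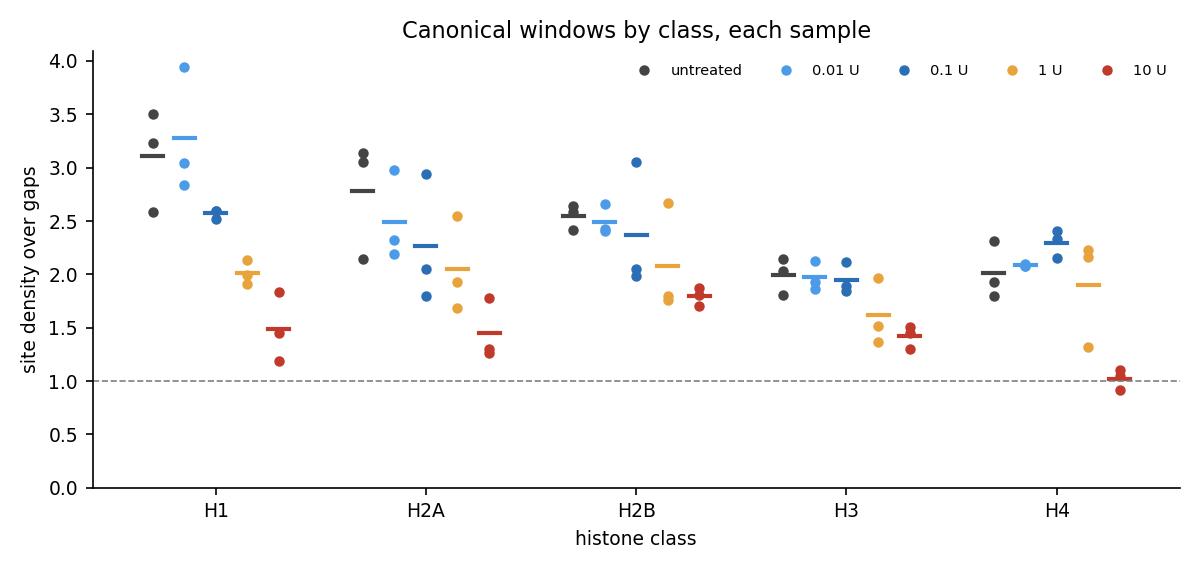
Site density in canonical windows over that in the gaps, by histone class and P1 amount. Each point is 1 sample, the short line is the mean of 3 replicates and the dashed line is a ratio of 1. In each class the 10 U points lie below the untreated ones, with H4 at 0.91 to 1.10.

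By position, the 28 genes of chromosome 6 from H1-1 to H4C8 had a ratio of 2.44 ± 0.188 without P1 and 1.52 ± 0.0911 at 10 U. The 16 genes from H2BC13 to H2BC17 had 2.64 ± 0.451 and 1.68 ± 0.0399. The 5 genes from H2BC11 to H2AC12 varied more between replicates, with 3.24 ± 0.943 and 2.05 ± 0.568, and their ranges overlapped. The cluster of chromosome 1 had 1.20 ± 0.595 and 0.526 ± 0.0520 against the same pooled gaps, of which those on chromosome 1 had the lower density given above. Relative to the number expected from base composition over mappable positions, the chromosome 1 genes had 2.67 ± 1.45 without P1 and 1.34 ± 0.152 at 10 U, and the genes from H1-1 to H4C8 had 2.42 ± 0.382 and 1.70 ± 0.0786. Its 5 genes H4C14, H3C14, H2AC19, H3C15 and H4C15 lie in repeated sequence, since none of the 100-base stretches of their canonical windows is unique in hg19. All 5 had 0 sites in the 15 samples, so their level is unknown here, and they are part of the length by which this cluster was divided.

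The members with the most sites had long annotated spans. H2BC4 (chr6:26086545-26124154, minus strand) had 1054 sites in its whole window and 78 around its canonical transcript. The canonical window held 10, 6 and 8 sites in the untreated samples, 6, 5 and 6 with 0.01 U, and 6, 2 and 10 with 0.1 U. It held 5, 6 and 4 with 1 U and 1, 1 and 2 with 10 U. In the canonical window of H2BC4 the 10 U samples all lay below the untreated ones, and the fitted log2 difference from untreated was -2.49 (SE 0.69, edgeR adjusted p = 0.0994). Over the whole span the difference was -0.14 (SE 0.15, edgeR adjusted p = 0.842).

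H2BC18 had 470 sites in its whole window, H2BC5 467, H2BC15 353, H2AC6 342, H2BC6 309, H4C8 254 and H2BC11 238, and their canonical windows held 42, 58, 76, 60, 47, 69 and 91. H4C8 was the H4 gene with the most sites, and its canonical window held 7, 3 and 9 sites in the untreated samples and 0, 1 and 4 at 10 U. H2AC6, the H2A gene with the most sites, held 6, 4 and 10 without P1 and 2, 3 and 0 at 10 U. Neither of these differences passed the test, with a log2 difference of -1.91 (SE 0.70, edgeR adjusted p = 0.291) for H4C8 and -1.93 (SE 0.70, adjusted p = 0.291) for H2AC6. H2BC15 held 9, 2 and 6 sites without P1 and 6, 9 and 0 at 10 U, so its groups overlapped.

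H1-2, the H1 gene with the most sites, held 15, 9 and 12 sites in untreated replicates 1 to 3. It held 3, 7 and 8 with 0.01 U, 9, 3 and 10 with 0.1 U, 4, 8 and 4 with 1 U, and 4, 6 and 3 with 10 U. The untreated values of H1-2 lay above all 10 U values, with a log2 difference of -1.51 (SE 0.48, edgeR adjusted p = 0.218). H3C12, the H3 gene with the most sites, held 13, 7 and 22 sites in its whole window without P1 and 6, 6 and 13 at 10 U, with a log2 difference of -0.80 (SE 0.39, edgeR adjusted p = 0.481). H1-3 was the member with the smallest p at 10 U and was singled out after its values were seen. H1-3 held 8, 11 and 12 sites in the untreated samples and 1, 6 and 1 at 10 U, which did not overlap, with a log2 difference of -2.07 (SE 0.55, edgeR adjusted p = 0.0743). H4C7 went the other way, also seen afterwards, with 2, 0 and 1 sites without P1 and 3, 4 and 6 at 10 U (log2 difference 1.93, SE 0.88, edgeR adjusted p = 0.443).

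**Figure D5:**
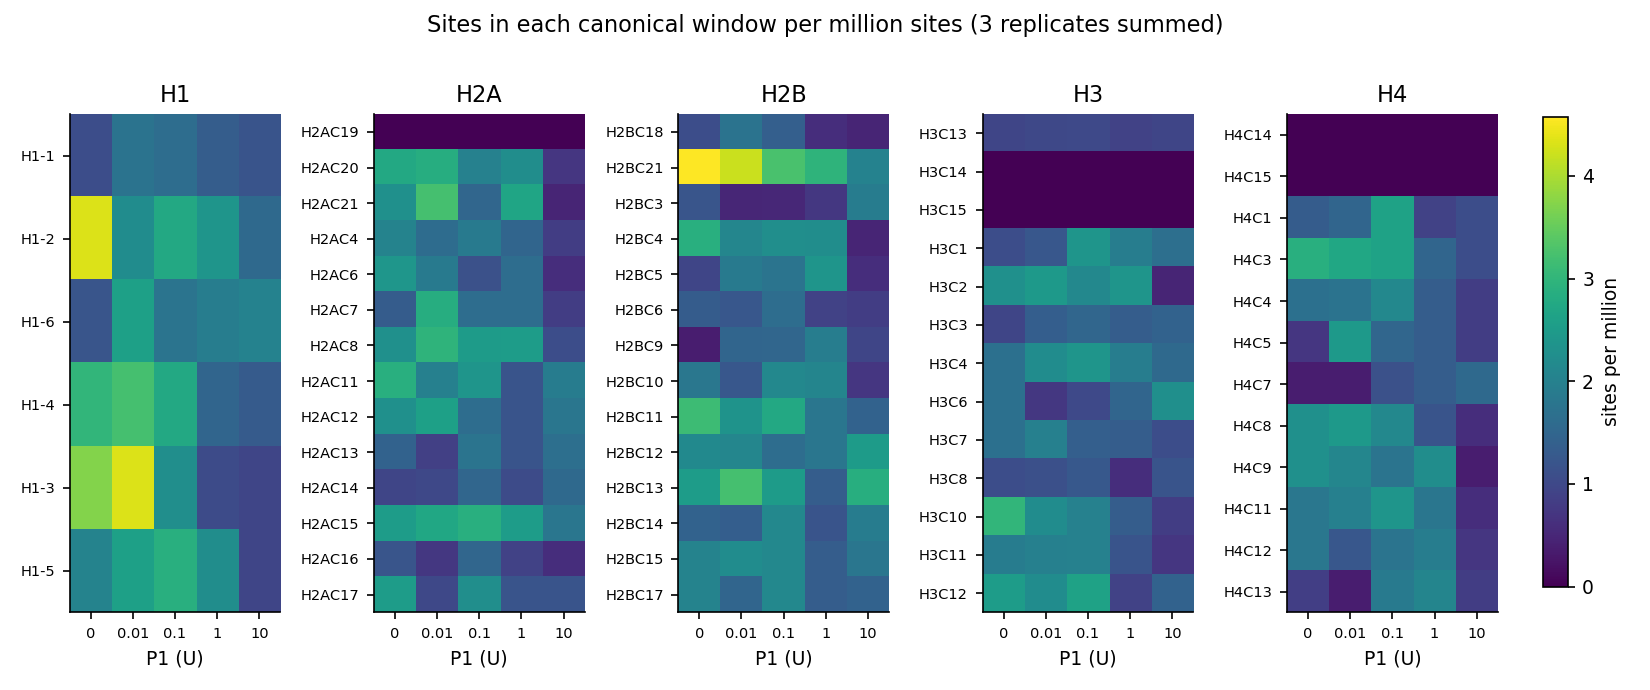
Sites in the canonical window of each member per 1000000 unique sites, summed over 3 replicates, by class (panels), gene (rows, in genomic order) and P1 amount (columns). The 5 dark rows are the chromosome 1 genes without uniquely mappable sequence. H1-3 has 31 sites in untreated nuclei and 8 at 10 U, and H4C7 has 3 and 13.

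No member was called when each P1 amount was compared with untreated nuclei over all windows. The fit by edgeR's quasi-likelihood test took 19629 windows with at least 10 sites, 54 of them members. At an adjusted p under 0.05, 0 members were lower at 10 U, against 0.0357% of all windows, and 0 were higher, against 0.056%. The counts were also 0 at 0.01 U (0.0% lower and 0.0% higher over all windows), 0.1 U (0.00509% and 0.0102%) and 1 U (0.0% and 0.00509%). DESeq2 called 0 members at 10 U as well. At an unadjusted p under 0.05, 16 of 54 members differed between 10 U and untreated nuclei, 15 of them lower, against 9.71% of all windows, and DESeq2 gave 6 of 54, against 2.95% of all windows. Without replicates 1, 2 and 3 edgeR gave 17, 10 and 10 members, against 10.0%, 7.34% and 8.14% of all windows. The median log2 difference at 10 U was -0.50 over the 54 members and -0.0008 over all windows, and 37 members were below 0. Over canonical windows the median of the members was -0.76. At 1 U the median was -0.23, with 37 members below 0, while at 0.01 and 0.1 U it was 0.05 and 0.09. Single replicates decided these values, since without replicate 3 the 1 U median was -0.03 with 28 members below 0, and without replicate 1 the medians at 0.01 and 0.1 U were -0.12 and -0.21. Neighbouring windows overlap in places, so the members are not independent of one another.

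Genes that make or process histone mRNA were taken from a list of 17. It includes NPAT, the coactivator of these clusters, SLBP, which binds the stem-loop, LSM10 and LSM11 of the U7 particle, and CPSF3, the endonuclease that cuts the 3′ end. None of the 17 was called at any amount, and at 10 U their median log2 difference was 0.08, with 7 below 0. NPAT had -0.08 (SE 0.16, edgeR adjusted p = 0.922) and SLBP 0.08 (SE 0.22, adjusted p = 0.950). Of 11 genes of replacement histones, whose supply is not confined to S phase and which lie elsewhere in the genome, none was called, 7 were below 0 and the median was -0.16 at 10 U. H3-3B, which encodes histone H3.3, had -0.96 (SE 0.33, edgeR adjusted p = 0.261) and H3-3A, which encodes the same protein, 0.11 (SE 0.32, adjusted p = 0.952).

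The deposited regions are stretches that the authors called with SICER in every P1-treated library, with the untreated library that carries its replicate number as background. Counting a window as overlapped if any of the 3 lists of an amount had a region in it, 9, 6, 9 and 6 of the 59 members were overlapped in the order of rising P1. Over all protein-coding windows the shares were 36.6%, 36.4%, 37.0% and 55.9%, but those windows are mostly far longer than the histone windows. With canonical transcripts 6, 3, 9 and 3 members were overlapped, against 33.4%, 33.2%, 33.6% and 52.3% of all windows. With equal windows of 500 bp on either side of the start, 4, 2, 6 and 2 members were overlapped, or 6.78%, 3.39%, 10.2% and 3.39%, against 4.11%, 3.99%, 3.07% and 4.76% of all starts. Of the 6 members at 1 U, 5 came from the list of replicate 2 and 1 from that of replicate 3. H2BC4 was overlapped in 5 of the 12 lists and H2BC18 in 4, both only in their long spans and not around the canonical transcript. H2AC4, H3C4, H4C5 and H3C11 were each overlapped in 2 lists, and no member was overlapped near its canonical transcript in more than 2.

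Sites rarely recurred at the same base. Of 3077 occupied positions and strands in canonical windows, 171 (5.56%) were occupied in 2 or more of the 15 samples, against 832 of 19717 (4.22%) in the gaps. Sharing of positions rises with site density, which was higher in canonical windows than in the gaps. The difference between these shares was therefore not read as a trait of the members and was not tested. The gaps held 2 positions occupied in all 15 samples, and the canonical windows held 0. The most shared position of the canonical windows was chr6:27791756 on the plus strand, 114 bp before the start of H4C11, with 8 termini in 5 samples and none at 10 U. The next were a position in H1-6 and one past the end of H2BC11, each in 4 samples. They are shown 5′ to 3′ along the strand of the terminus, with the base at the site in capitals and 10 bases on either side:
H4C11, chr6:27791746-27791766, plus strand: tttcggtttgGccctttagat
H2BC11, chr6:27099807-27099827, minus strand: tgccaagttgCagcggttgtc
H1-6, chr6:26108201-26108221, minus strand: gtgcaagtcgCaaagtgccga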

How the data were processed

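The deposited site files hold, for each of 15 samples, the counts of 3′-OH termini per genomic position and strand. Per the labels and methods, the authors aligned trimmed read pairs to hg19 with BWA 0.7.12, took the first base after the T stretch of read 2 in uniquely mapped pairs as the terminus, and removed termini next to T-rich sequence, since these can arise from internal priming. The authors called regions with SICER 1.1 in every P1-treated library with the same-numbered untreated library as background, and of these files, which also hold fold changes and p-values, the positions alone were used. A deposited strand is that of read 2, so the terminus was placed on the opposite strand, as checked on the 3′ end of mitochondrial 7S DNA at position 16107.

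Each occupied position and strand was counted as 1 unique site, and densities were sites per Mb and per 1000000 unique sites of the sample. Gene models were GENCODE 44 mapped to hg19. Summed values were tested by exact permutation within replicate numbers and by exact sign-flip tests, two-sided. Windows of all protein-coding genes with at least 10 sites were fitted by edgeR 4.0.16 (R 4.3.3) with TMM factors, the replicate number as a term and Benjamini-Hochberg adjustment, and DESeq2 1.42.0 was an alternative. In simulated data with 200 changed windows of 19599, 168 were recovered and 4 unchanged windows were called. The changed windows were drawn only from windows with more sites than most members held, so this recovery does not apply to most members. Errors are the spread between replicates, since several termini at a site may be copies of 1 molecule. Base composition was modelled by the rate of each trinucleotide over all positions of the genome that pass the T-rich filter, repeated sequence included. Expected numbers were summed over the positions of a window that pass this filter and are also unique with 100-base reads. Repeated sequence enters these rates, and the copy number of the intervals also enters the levels of observed over expected sites. How much each adds to these levels was not tested. Canonical transcripts, base composition and equal start windows were alternatives chosen after the data were seen.

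The members, gene lists and tests were chosen with earlier results of these data known. Named genes were the 8 members with most sites, the 3 with fewest, those overlapped by regions in most lists, those called in the fit and the member of each class with most sites. The mitochondrial files served only to settle the strand, and the deposited files of sites inside regions were not used.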

Additional observations from a re-analysis of the deposited data

How the results depend on the processing

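The lower density of the histone windows at 10 U kept its direction under every alternative run, with whole gene spans or canonical transcripts, shorter flanks, all termini, chromosome 6 alone, mappable positions and base composition. With 1 replicate left out no permutation p can go below 0.04. The 10 U factor then ranged from 0.770 to 0.800 for the ratio to gaps (p 0.04 to 0.08), from 0.735 to 0.772 for the ratio to other genes (p 0.04 to 0.08), from 0.708 to 0.789 for the ratio to other starts (p 0.04 to 0.16), and from 0.965 to 1.31 for downstream over body. The exact permutation p of the spread over the 5 amounts ranged from 0.0667 to 0.267 for the density, 0.075 to 0.258 for the ratio to gaps, 0.0333 to 0.300 for the ratio to other genes and 0.00833 to 0.325 for upstream over body. With base composition this p was 0.0520 for the density (0.0683 with canonical transcripts), 0.0538 for canonical transcripts over other genes and 0.0597 for upstream over body, and it was 0.0763 for upstream over body with all termini.

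The level over other genes was 1.19 on chromosome 6 alone, 1.14 over mappable positions, 1.13 against genes of any type, 1.51 with canonical transcripts, 1.75 with canonical transcripts and 200 bp flanks and 1.28 with canonical transcripts and composition, each past the threshold. With whole gene spans and composition it was 1.08 (exact sign-flip p = 0.0626), short of the threshold. Upstream over body was 0.998 on chromosome 6 alone, 0.463 with canonical transcripts, 0.494 with canonical transcripts and 200 bp flanks and 0.749 with canonical transcripts and composition. Downstream over body, which lost its call on chromosome 6 alone, over mappable positions, with composition and without replicate 3, was 1.06 on chromosome 6 alone and 1.06 over mappable positions, 1.07 with composition, 0.570 with canonical transcripts, 0.592 with canonical transcripts and 200 bp flanks and 0.832 with canonical transcripts and composition, and from 1.08 to 1.15 with 1 replicate left out. Its 10 U factor was 0.962 with 250 bp flanks and 0.877 with canonical transcripts and 200 bp flanks. Its untreated factor was 1.01 with canonical transcripts, 1.01 with their 200 bp flanks and 1.05 with canonical transcripts and composition, and from 0.864 to 1.06 with 1 replicate left out. The coding strand share was 0.456 with canonical transcripts, with either flank, and its difference at 10 U was -0.00784 on chromosome 6 alone and from -0.00935 to 0.0226 with 1 replicate left out. The causes were not tested, other than that canonical transcripts leave out the long spans.

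At 10 U the 18 called windows of all genes became 67 with all termini, 0 with start windows, 0 with DESeq2 and from 0 to 16 with 1 replicate left out, and no alternative called a member. Members at an unadjusted p under 0.05 numbered 6 with DESeq2 (2.95% of all windows) and 17, 10 and 10 without replicates 1, 2 and 3 (10.0%, 7.34% and 8.14% of all windows). With start windows, 4, 2, 6 and 2 of 59 members were overlapped by a region at the 4 amounts (6.78%, 3.39%, 10.2% and 3.39%). The shares of all starts were 4.11%, 3.99%, 3.07% and 4.76%. With canonical transcripts 6, 3, 9 and 3 members were overlapped (33.4%, 33.2%, 33.6% and 52.3% of all windows). Leaving out 1 replicate gave from 4 to 9, 3 to 6, 2 to 9 and 2 to 6 members at the 4 amounts. For these last counts the shares over all windows are not given, so they show only how far the counts move. At 1 U the count fell from 9 to 2 without replicate 2.

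Replicate numbers are shared between the groups, but samples of the same number did not deviate together, with correlations from -0.0316 to 0.0515 over 30 pairs and 13552 windows. Without the replicate block the 10 U p was 0.00632 for the ratio to gaps and 0.00428 for upstream over body, and edgeR called 14 windows at 10 U and 0 members. The block changed no call on a member. Members held few sites each, and H4C14, H3C14, H2AC19, H3C15 and H4C15 could not be measured.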
